A study of Mus musculus with 23 samples.

Results

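The genes described here are 6 regulators and markers of the trophoblast lineage, Gata2, Gata3, Tpbpa, Dlx3, Cdx2 and Hand1. They were followed across mouse embryonic stem (ES) cells that had received an activating form of serum response factor or a control plasmid. Members were taken by symbol from the deposited expression table. Each of the 6 symbols was paired with 1 probe set, out of 12436 probe sets once control probe sets were left out, and keratins were not included. The probe sets were 102789_at for Gata2, 100924_at for Gata3, 100709_at for Tpbpa, 99328_at for Dlx3, 103239_at for Cdx2 and 92766_at for Hand1.

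Total RNA of ES cells was measured on 23 oligonucleotide arrays, 72 h after transfection with 1 of 3 plasmids. SRF-VP16 joins serum response factor (SRF) to the VP16 transcriptional activation domain, SRFdM-VP16 is labelled as its control, and the remaining plasmid was labelled vector. The 4 lines were wild-type E14, E99 (+/-), E81 (-/-) and E100 (-/-), and the labels name no gene behind +/- and -/-. The 12 groups of line and plasmid held 2 arrays each, except E100 with vector, which held 1. What all groups shared is transfection with a plasmid, and the share of cells that took it up is not given in the sources used here. The labels do not state that duplicates came from separate cultures. The p-values therefore cover the spread between these arrays alone, which may be technical.

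The trophoblast is the first lineage to separate from the embryo proper and forms the fetal part of the placenta. Cdx2, Gata3 and Gata2 are transcription factors of its stem cells and early derivatives, Hand1 drives giant cell formation, Dlx3 acts in the labyrinth layer, and Tpbpa marks the spongiotrophoblast. ES cells stem from the inner cell mass and do not normally enter this lineage, although raising Cdx2 or Gata3 in them can start trophoblast gene expression. SRF binds the CArG box of cytoskeletal, muscle and immediate-early genes.

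The promoters of the members are shown because the plasmid encodes a DNA-binding activator. RefSeq (build GRCm38.p6) gave 5 start sites for 4 of the 6 members, namely Gata2 with 2 and Gata3, Tpbpa and Cdx2 with 1 each, and 250 bases before each start were searched on both strands. Capitals mark GGGCGG (the GC box), CCAAT and ATGCAAAT (the octamer) or their reverse complements. The Gata3 window is chr2:9878601-9878850 on the minus strand, the first Gata2 window is chr6:88193641-88193890 on the plus strand, the Tpbpa window is chr13:60941937-60942186 on the minus strand and the Cdx2 window is chr5:147307250-147307499 on the minus strand.
Gata3: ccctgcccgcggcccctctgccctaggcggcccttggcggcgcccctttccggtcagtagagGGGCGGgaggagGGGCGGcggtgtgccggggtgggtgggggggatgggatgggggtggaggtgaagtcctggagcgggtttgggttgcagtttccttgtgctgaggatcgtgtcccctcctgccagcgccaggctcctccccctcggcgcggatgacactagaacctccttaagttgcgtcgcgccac
Gata2: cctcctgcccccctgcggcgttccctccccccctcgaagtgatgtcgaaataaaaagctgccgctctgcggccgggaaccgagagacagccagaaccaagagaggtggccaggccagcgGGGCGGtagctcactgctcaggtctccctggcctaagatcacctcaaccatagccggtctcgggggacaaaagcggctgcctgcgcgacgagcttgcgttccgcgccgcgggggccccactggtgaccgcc
Tpbpa: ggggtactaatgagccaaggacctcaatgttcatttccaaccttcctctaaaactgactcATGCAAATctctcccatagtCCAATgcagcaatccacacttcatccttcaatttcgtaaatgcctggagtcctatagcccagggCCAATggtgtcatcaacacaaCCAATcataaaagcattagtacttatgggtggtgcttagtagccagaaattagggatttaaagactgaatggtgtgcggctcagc
Cdx2: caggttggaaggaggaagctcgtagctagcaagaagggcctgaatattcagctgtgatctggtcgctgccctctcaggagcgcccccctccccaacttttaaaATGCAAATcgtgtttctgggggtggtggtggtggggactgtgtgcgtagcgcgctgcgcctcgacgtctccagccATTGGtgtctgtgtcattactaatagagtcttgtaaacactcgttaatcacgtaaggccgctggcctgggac

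None of the 5 windows held a CArG box, which 1.47% of 32851 promoter windows of the same length held. None held the letters GATA, which 53.6% held. The GC content was 70.0% for Gata3, with 2 GC boxes, and 67.2% for the Gata2 window shown, with 1 GC box. The other Gata2 window (chr6:88198414-88198663, plus strand, GC content 74.0%) held 2 GC boxes and 2 CCAAT boxes. The GC box was in 32.7% of all windows. The Tpbpa window had a GC content of 44.4%, with 3 CCAAT boxes and 1 octamer, and the Cdx2 window one of 55.2%, with 1 of each. The CCAAT box was in 33.8% of all windows and the octamer in 1.6%. These letters describe the windows and say nothing about binding. No 2 of the motifs overlapped in the windows shown, and the GC box, CCAAT box and octamer were added to the search after the sequences had been seen.

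Array medians ran from 53.5 to 207 intensity units. Between 23.5% and 43.6% of the readings on each array lay at or below 0. Precision is limited by how few arrays there are. In E81 the shares at or below 0 were 43.6% and 36.2% with SRFdM-VP16, the first the highest of all arrays, and 34.3% and 37.2% with SRF-VP16. In E100 they were 24.8% and 24.3% with SRFdM-VP16 and 23.5% and 26.6% with SRF-VP16. E81 SRFdM-VP16 replicate 1 also had the lowest median of all arrays. For the tests, intensities below a floor of 58 (the 40th percentile of all values) were set to 58 and put on the log2 scale, so a fold change from a group at the floor is a lower bound. Values below are deposited intensities in arbitrary units, in the order replicate 1, replicate 2, and changes are log2 differences ± SE with limma's p adjusted over the 9643 probe sets tested. Intensities of different probe sets are not comparable with each other.

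SRF-VP16 was accompanied by higher signals of 4 of the 6 genes in the -/- lines. Gata2 and Gata3 rose well above the floor, Tpbpa and Dlx3 came off the floor in E100 but not in E81, and Cdx2 did not pass the test. Hand1 was too low to be tested. Of the 5 members that passed the filter on low values, 4 rose over both -/- lines (all but Cdx2), where 2.82% of all tested probe sets were called. In E100 the same 4 rose, against 1.18% of all tested probe sets, and in E81 only Gata3 did, against 1.01%. In wild type and E99 limma called 0 of the 5 members and 0 had an unadjusted p under 0.05, while 0.0207% and 0.0415% of all probe sets were called. Tpbpa and Dlx3 passed the filter only through the E100 SRF-VP16 pair, so their counts add no support of their own. Their change in E81 was 0, so their calls over both -/- lines restate those in E100.

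**Figure D1:**
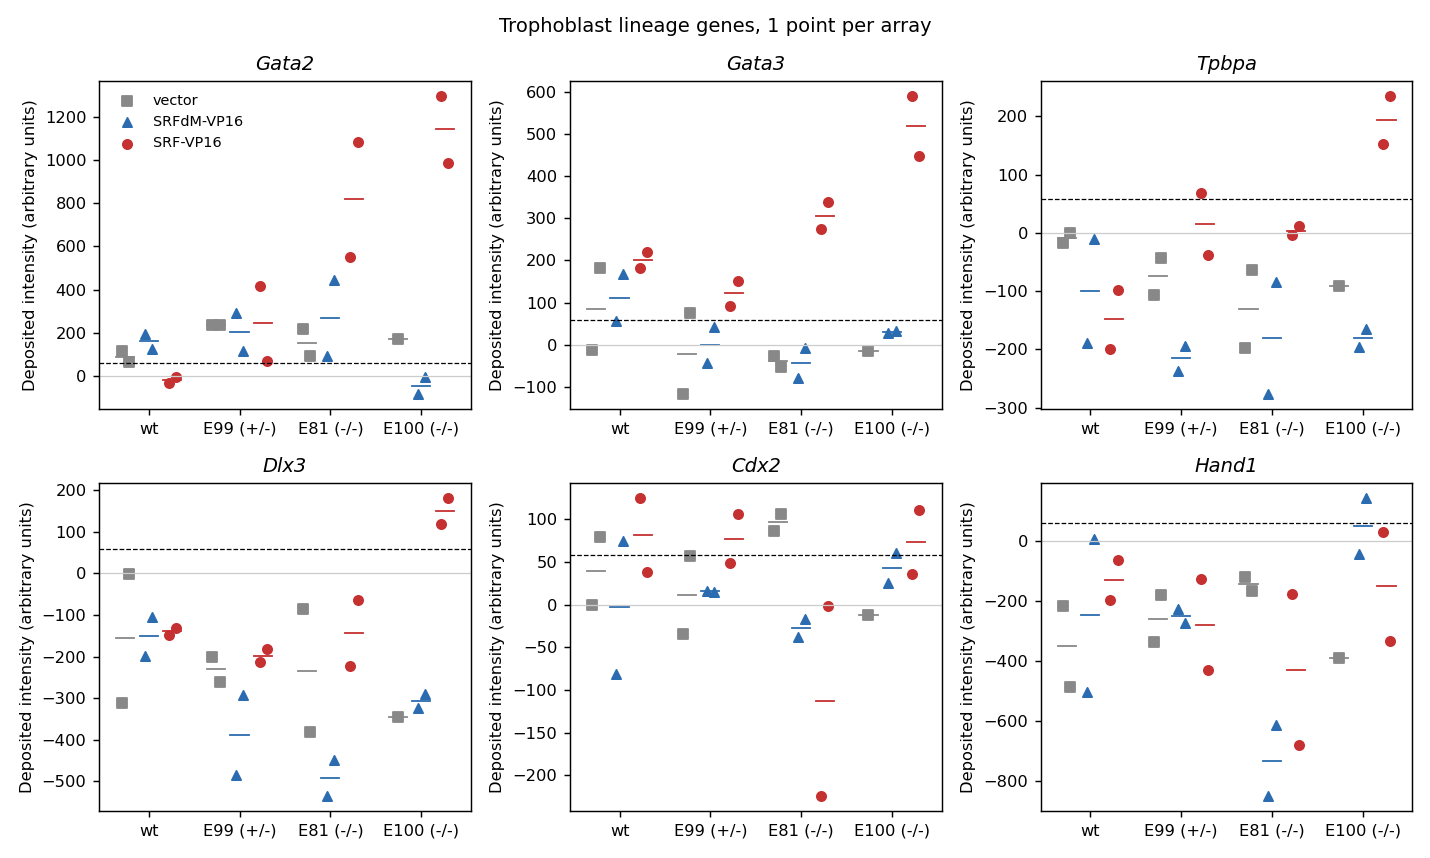
Deposited intensity (arbitrary units, linear axis) of the 6 genes in every array, by line and plasmid, with horizontal bars at group means. The dashed line is the floor of 58. Gata2 and Gata3 lie highest in the E81 and E100 SRF-VP16 arrays, Tpbpa and Dlx3 exceed the floor in both E100 SRF-VP16 arrays (Tpbpa also in 1 E99 SRF-VP16 array), and for Cdx2 and Hand1 the SRF-VP16 arrays overlap the SRFdM-VP16 arrays in each -/- line.

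Gata2 encodes a zinc-finger factor of trophoblast and of blood progenitors. In wild type its intensities were 114 and 65 with vector, 196 and 123 with SRFdM-VP16, and -33 and -5 with SRF-VP16. In E99 they were 235 and 237, then 116 and 293, then 418 and 68 in the same order of plasmids. In E99 the SRF-VP16 arrays overlapped the controls, and in wild type both SRF-VP16 arrays were below all 4 controls and under the floor. In E81 the values were 215 and 90 with vector, 93 and 445 with SRFdM-VP16, and 551 and 1083 with SRF-VP16. In E100 they were 173 on the single vector array, -85 and -4 with SRFdM-VP16, and 1296 and 986 with SRF-VP16. All 4 -/- SRF-VP16 arrays thus lay above every other array of the series for this gene.

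Over both -/- lines Gata2 changed by 3.10 ± 0.61 (8.60-fold, adjusted p = 0.0124), with E100 carrying the larger part. The change in E100 was 4.28 ± 0.86 (at least 19.5-fold, since both SRFdM-VP16 arrays were at the floor, adjusted p = 0.0263). In E81 it was 1.92 ± 0.86 and did not pass (adjusted p = 0.349). The E81 and E100 effects were not shown to differ (-2.36 ± 1.21, adjusted p = 0.485). The -/- call was lost with vector as the control (2.59, adjusted p = 0.0615), without E81 SRFdM-VP16 replicate 1 (2.50, adjusted p = 0.0539) and without E81 SRF-VP16 replicate 2 (2.85, adjusted p = 0.0579). The E100 call was lost without any one of the 4 E100 SRFdM-VP16 and SRF-VP16 arrays (4.11 to 4.51, adjusted p from 0.0702 to 0.144) and with vector as the control (2.71, adjusted p = 0.347). It also missed the threshold with no filter (adjusted p = 0.0501), with division by the array median (adjusted p = 0.0508) and with a replicate block within line (adjusted p = 0.0718).

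Gata3 encodes the related factor of trophoblast progenitors, which also acts in T cells and the ectoderm. In wild type it read -12.7 and 182 with vector, 56 and 167 with SRFdM-VP16, and 182 and 221 with SRF-VP16. In E99 it read 75 and -118, then 42 and -44, then 93 and 151. In both lines the SRF-VP16 pair was at or above the highest control value, by a narrow margin, and in wild type the control arrays numbered 2 stood well above those numbered 1. In E81 the values were -26 and -52 with vector, -79 and -7 with SRFdM-VP16, and 275 and 338 with SRF-VP16. In E100 they were -15 with vector, 28 and 33 with SRFdM-VP16, and 591 and 448 with SRF-VP16. All 7 -/- control arrays were below the floor and all 4 SRF-VP16 arrays above it.

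The Gata3 change in the -/- lines was 2.77 ± 0.36 (at least 6.83-fold, adjusted p = 0.000908). In E100 it was 3.15 ± 0.51 (at least 8.87-fold, adjusted p = 0.00651) and in E81 2.39 ± 0.51 (at least 5.26-fold, adjusted p = 0.045), where the median of all tested probe sets also moved, by 0.25. In wild type it was 1.03 ± 0.51 and in E99 1.03 ± 0.51, neither past the threshold (adjusted p = 1 for both). The call for the -/- lines held in 32 of 32 other settings. The E81 call held in 11 of 32 and was lost without any of its own arrays but SRFdM-VP16 replicate 2, and without most arrays of other groups (highest adjusted p 0.206). It was also lost with no filter, a filter or floor at the 60th percentile, or an inverse hyperbolic sine in place of the logarithm. The E100 call was lost without E100 SRFdM-VP16 replicate 2 (adjusted p = 0.0528) and on the inverse hyperbolic sine scale (adjusted p = 0.247).

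Tpbpa, which encodes a secreted protein of the spongiotrophoblast, was near background nearly everywhere. Over the 15 control-plasmid arrays its intensity ran from -277 to -1 with a median of -106, and none reached the floor. With SRF-VP16 it was -199 and -98 in wild type, 69 and -38 in E99, -3 and 11 in E81, and 153 and 235 in E100. The E100 pair was thus the highest of the 12 groups, clear of all other arrays, and E99 SRF-VP16 replicate 1 was the only other array above the floor. In E100 the SRFdM-VP16 arrays read -196 and -165 and the vector array -92. The change in E100 was 1.71 ± 0.16 (at least 3.27-fold, adjusted p = 9.23e-05), and 0.85 ± 0.11 over the -/- lines (adjusted p = 0.000904). Every array outside the E99 and E100 SRF-VP16 groups was set to the floor and so added no spread to the fit. The small SE and p therefore leave out most of the spread of the deposited readings. In E81 all arrays were at the floor, so the -/- value and the difference between the E81 and E100 effects (-1.71 ± 0.22) both restate the E100 change. Neither is separate evidence. That difference was called, as were 0.145% of all tested probe sets.

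Dlx3, a homeobox factor needed for placental labyrinth formation, also exceeded the floor in the E100 SRF-VP16 pair. Over the 15 control-plasmid arrays it ran from -535 to -1 with a median of -292. With SRF-VP16 it read -148 and -131 in wild type, -213 and -182 in E99, -223 and -63 in E81, and 118 and 182 in E100. The E100 SRF-VP16 pair held the only values above 0 among 23 arrays. In E100 SRFdM-VP16 gave -323 and -289 and vector -344. The change in E100 was 1.34 ± 0.15 (at least 2.53-fold, adjusted p = 0.000342), and 0.67 ± 0.10 over the -/- lines (adjusted p = 0.00311). Every array outside E100 SRF-VP16 was set to the floor, so this SE and p also leave out most of the spread of the deposited readings. All E81 arrays were at the floor here too. The -/- value and the called difference between the E81 and E100 effects (-1.34 ± 0.21) thus again restate the E100 change.

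Without either E100 SRF-VP16 array, Tpbpa and Dlx3 no longer passed the filter and 3 members were tested. With a floor at the 60th percentile (301) both were at the floor in all arrays and changed by 0. The -/- call of Dlx3 was also lost under quantile normalization (0.55, adjusted p = 0.0535). Under quantile normalization and under division by the array median the differences between E81 and E100 kept their sign and lost their calls (Tpbpa adjusted p = 0.142 and 0.0598, Dlx3 adjusted p = 0.57 and 0.291). They did the same on the inverse hyperbolic sine scale (adjusted p = 0.481 and 0.436) and with no intensity trend (adjusted p = 0.0605 and 0.114).

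Cdx2, the homeobox factor that specifies trophectoderm, did not pass the test in either -/- line. It read 86 and 106 with vector, -38 and -17 with SRFdM-VP16, and -224 and -2 with SRF-VP16 in E81. In E100 it read -12 with vector, 25 and 60 with SRFdM-VP16, and 36 and 111 with SRF-VP16. In E100 the SRFdM-VP16 and SRF-VP16 arrays overlapped and the vector array was below them, and in E81 the vector pair was the highest. In wild type the values were -0.9 and 79, -81 and 74, and 125 and 38 for vector, SRFdM-VP16 and SRF-VP16, and in E99 they were 57 and -35, 15 and 16, and 48 and 106. In all, 8 of 23 arrays exceeded the floor. The -/- change was 0.22 ± 0.26 (adjusted p = 0.798), with its sign turned when vector served as control (-0.13) and under an inverse hyperbolic sine scale (-0.19).

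Hand1, a basic helix-loop-helix factor of trophoblast giant cells, exceeded the floor in 1 of 23 arrays, E100 SRFdM-VP16 replicate 2 at 143, and was therefore not tested by limma. Its -/- SRF-VP16 arrays read -177 and -680 in E81 and 29 and -333 in E100. The SRFdM-VP16 arrays read -849 and -613 in E81 and -45 and 143 in E100, so the groups overlapped. The remaining 15 arrays ran from -502 to 5 without any order by plasmid.

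The group order of each gene over the 12 groups showed how far these levels can be told apart. For Gata3 the order was E100, E81, wild type and E99, each with SRF-VP16, with means ± SD of 520 ± 101, 306 ± 44.5, 202 ± 27.6 and 122 ± 41.0 (n = 2 each), and the first 3 steps down had arrays that did not overlap. The other 8 groups, all with a control plasmid, overlapped their neighbours. For Gata2 the E100 and E81 SRF-VP16 groups (1141 ± 219 and 817 ± 376, n = 2 each) overlapped each other and were clear of the group below them. Wild-type SRF-VP16 and E100 SRFdM-VP16 formed the low end, at -19.0 ± 19.8 and -44.5 ± 57.3, clear of wild type with vector at 89.6 ± 34.8. For Tpbpa and Dlx3 E100 SRF-VP16 (194 ± 58.0 and 150 ± 45.3) was clear of the next group. For Cdx2 and Hand1 10 of 11 neighbouring groups overlapped.

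Because the floor hides differences among low values, the deposited intensities were also compared directly between the 4 SRF-VP16 and the 4 SRFdM-VP16 arrays of the -/- lines. For 4 of the 6 genes the lowest SRF-VP16 array exceeded the highest SRFdM-VP16 array, a pattern held by 3.96% of all 12436 probe sets. It exceeded all 7 -/- control arrays for 3 of 6 (not Dlx3, whose E81 vector replicate 1 read -86), against 2.63% of all probe sets. The differences of means were 867 for Gata2 (979 ± 313 against 112 ± 233), 419 for Gata3 (413 ± 139 against -6.25 ± 51.7), 280 for Tpbpa (99.0 ± 115 against -181 ± 79.4) and 402 for Dlx3 (3.5 ± 183 against -399 ± 114), as mean ± SD over 4 arrays. For Cdx2 the difference was -27.2 and for Hand1 50.8, with arrays that overlapped. This comparison was prompted by the separation seen in the data and is given as a description.

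Below the floor, Tpbpa and Dlx3 also read higher with SRF-VP16 in E81, by 185 and 349 units, against 374 and 456 in E100 and -49 and 12 in wild type. In E99 the differences were 231 and 190. These E81 readings are below 0 for most arrays, and E81 SRFdM-VP16 replicate 1 had the highest share of values at or below 0 of all arrays. The part of that background in the E81 readings was not tested.

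No member's difference in effect between the -/- lines and wild type passed limma's threshold on the log2 scale. The difference was 4.53 ± 1.05 for Gata2 (adjusted p = 0.24), 1.74 ± 0.62 for Gata3 (adjusted p = 0.724), 0.85 ± 0.19 for Tpbpa (adjusted p = 0.218) and 0.67 ± 0.18 for Dlx3 (adjusted p = 0.368). Here 0 of 5 members were called and 4 had an unadjusted p under 0.05. Of all 9643 tested probe sets 0.083% were called and 513 had an unadjusted p under 0.05. Tpbpa and Dlx3 were at the floor in all E81 and wild-type arrays, so their differences restate the E100 change. On the inverse hyperbolic sine scale, which has no floor, the Gata2 difference was called (6.95, adjusted p = 0.0272). On the log2 scale a rise in the -/- lines beside no call in wild type is therefore not shown to be a difference between them.

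**Figure D2:**
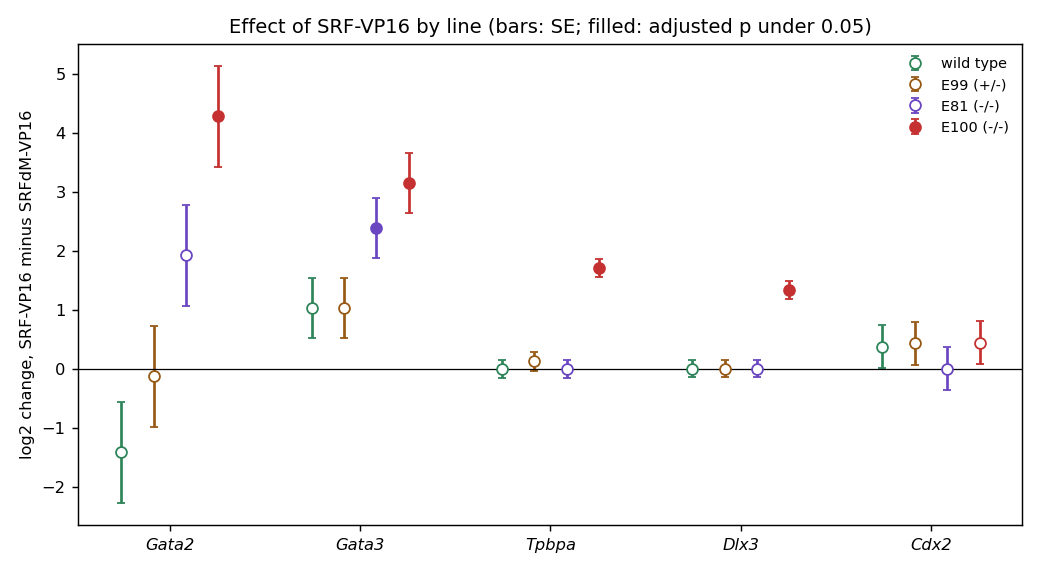
Log2 change of SRF-VP16 against SRFdM-VP16 for the 5 tested genes in each line, with bars of 1 SE, filled where limma's adjusted p was under 0.05. Filled points are Gata3 in E81 and Gata2, Gata3, Tpbpa and Dlx3 in E100, and points at 0 have every array of both plasmid groups at the floor.

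Without SRF-VP16 no member passed the test between lines. With the control plasmids, -/- against wild type gave -0.79 ± 0.33 for Gata3 (adjusted p = 0.703) and 0.17 ± 0.55 for Gata2. Here 0 of 5 members were called and 1 had an unadjusted p under 0.05. Of all 9643 tested probe sets 0.083% were called and 609 had an unadjusted p under 0.05. E81 against E100 with the control plasmids gave 0.75 ± 0.68 for Gata2 and 0.35 ± 0.29 for Cdx2, again with 0 members called and 0 with an unadjusted p under 0.05, against 0.788% of all probe sets. SRFdM-VP16 against vector over the 4 lines gave 0 calls among the members (0 with an unadjusted p under 0.05), with values from -0.19 for Cdx2 to 0 for Tpbpa and Dlx3, while 0.799% of all probe sets were called. The Gata2 value of -0.13 turned to 0.40 under quantile normalization and 0.55 under division by the array median. The Gata3 value of -0.06 turned to 0.52 on the inverse hyperbolic sine scale.

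Of a list of 72 other trophoblast genes, 52 were on the array and 36 were tested. In the -/- lines 6 of the 36 rose and 0 fell, where 2.82% of all tested probe sets were called. The median change was 0.76 against 0.04 for all tested probe sets. The medians were 0.87 in E81 (against 0.25), 0.64 in E100 (against -0.14), 0.13 in wild type (against 0.04) and 0.20 in E99 (against 0.11). In E81 3 rose, where 1.01% of all tested probe sets were called. In E100, wild type and E99 limma called 0, where 9, 1 and 3 had an unadjusted p under 0.05. Of all 9643 tested probe sets 1.18%, 0.0207% and 0.0415% were called there, and 1239, 346 and 432 had an unadjusted p under 0.05. The 6 that rose were Igf2, Bhlhe40, Car2, Fgfr2, Ets2 and Sct. Of them Igf2, Car2 and Sct were also among the 6 brightest genes of the list, beside Id2, Itgav and Cited2.

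Igf2, a growth factor strongly expressed in the placenta and in other fetal tissues, had the largest change of the list. It read 9083 and 15151 in E81 and 11269 and 7306 in E100 with SRF-VP16, and all 7 -/- control arrays were below 0. The change was 7.47 ± 1.21 (at least 178-fold, adjusted p = 0.00405). Wild-type SRF-VP16 arrays read 5467 and 4684, and the wild-type control arrays numbered 2 read 4127 with vector and 3918 with SRFdM-VP16 while those numbered 1 were below 0. E99 read 5664 and 3031 with SRF-VP16 against -22 and -316 with SRFdM-VP16. A second Igf2 probe set was above the floor in 1 of 23 arrays and changed by 0, so the 2 probe sets disagree.

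Ets2 and Fgfr2 belong to the signalling that keeps trophoblast stem cells in cycle, Fgfr2 as receptor of FGF4 and Ets2 as a factor downstream. Ets2 read 764 and 886 in E81 and 910 and 1765 in E100 with SRF-VP16, against 250 and 174 and against 385 and 597 with SRFdM-VP16. Its -/- change was 1.69 ± 0.30 (3.23-fold, adjusted p = 0.00744), and it was lost under quantile normalization and under division by the array median. Fgfr2 read 799 and 678 in E81 and 1126 and 1122 in E100, against 222 and 258 and against 284 and 375. Its change was 1.70 ± 0.35 (3.25-fold, adjusted p = 0.0165), and its other 2 probe sets were above the floor in 0 of 23 arrays. That call was lost with vector as control, with the replicate block (adjusted p = 0.0516), and without E81 SRFdM-VP16 replicate 1, E100 SRFdM-VP16 replicate 1 or E81 SRF-VP16 replicate 1 (highest adjusted p 0.0691). For both genes the SRF-VP16 arrays were above the SRFdM-VP16 arrays in each -/- line. For Fgfr2 this also held in wild type (641 and 346 against 208 and 294) and in E99 (441 and 492 against 371 and 274). For Ets2 the arrays overlapped in wild type (233 and 276 against 364 and 250) and in E99 (297 and 521 against 410 and 401).

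Bhlhe40, a basic helix-loop-helix repressor expressed in trophoblast and in many stressed or hypoxic cells, read 2773 and 5196 in E81 and 2209 and 2696 in E100 with SRF-VP16. With SRFdM-VP16 it read -22 and 186 in E81 and 369 and 634 in E100, and the change was 3.76 ± 0.49 (13.6-fold, adjusted p = 0.000904). Car2, a carbonic anhydrase, changed by 1.86 ± 0.32 (3.64-fold, adjusted p = 0.00607) and Sct, the hormone secretin, by 0.96 ± 0.18 (1.95-fold, adjusted p = 0.0088). SRF-VP16 arrays also lay above the SRFdM-VP16 arrays for Bhlhe40 and Sct in E99 and for Car2 in wild type. They overlapped for Bhlhe40 and Sct in wild type and for Car2 in E99. The other Sct probe set changed by 2.60 ± 0.24 in the -/- lines. The calls of Car2 and Sct were lost with vector as control and under division by the array median, and those of Igf2 and Bhlhe40 held in 32 of 32 other settings each. In E81 alone Bhlhe40 (5.19), Car2 (2.36) and Ets2 (1.98) were called. There the Ets2 call held in 8 of 32 other settings and the Car2 call in 25 of 32, and Bhlhe40 lost its call with vector as the control (2.66, adjusted p = 0.105).

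Eomes, Elf5, Tfap2c and Id2 were not among the genes called. Eomes, a T-box factor of trophoblast stem cells, changed by 0.58 in the -/- lines (adjusted p = 0.74), and Elf5 was above the floor in 0 of 23 arrays. Tfap2c, a factor of the same cells, did not pass either (adjusted p = 0.777), and Id2, high in early trophoblast, changed by 2.33 ± 0.85 without passing (adjusted p = 0.227). Of the 52 genes, 14 were at the floor in all arrays, among them the prolactin family members Prl7a1, Prl7d1 and Prl6a1, made by differentiated trophoblast.

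**Figure D3:**
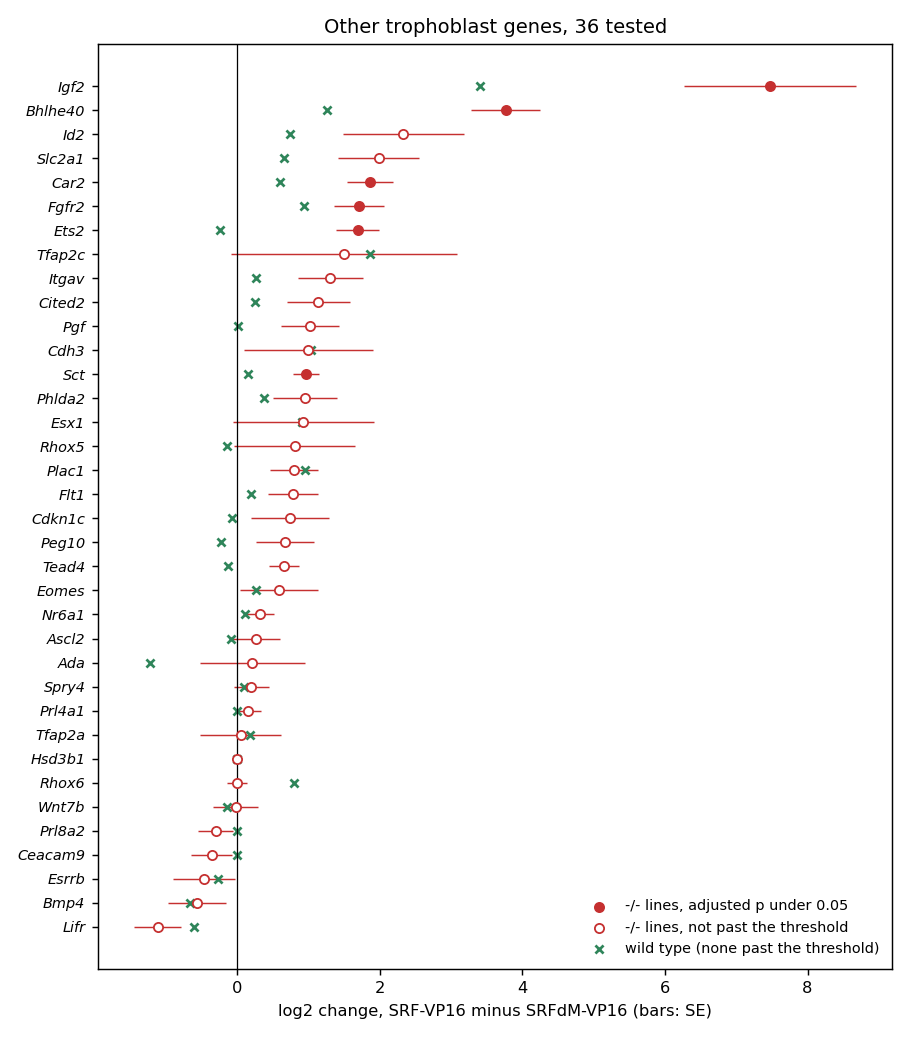
Log2 change of SRF-VP16 against SRFdM-VP16 for the 36 tested genes of the wider trophoblast list, in the -/- lines (circles with bars of 1 SE, filled where limma's adjusted p was under 0.05) and in wild type (crosses). The 6 filled circles are Igf2, Bhlhe40, Car2, Fgfr2, Ets2 and Sct, and no wild-type value passed the threshold.

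In the -/- lines 1 of 12 ES cell markers fell and 2 of 13 tested primitive endoderm markers rose, where 2.82% of all tested probe sets were called. Of the 12 ES cell markers, 10 were above the floor in all 23 arrays, and none of the 12 was at the floor throughout. Their summed intensity was 41384 to 54359 with SRF-VP16 and 98222 to 120527 with SRFdM-VP16 in E100, and 61334 to 67218 against 56414 to 89940 in E81. The ES cell marker that fell was Fgf4, the ligand of Fgfr2, by 1.15 in the -/- lines (SE 0.22, adjusted p = 0.0117). In the bulk RNA of a culture, fewer cells of a type and less RNA per cell cannot be told apart. The summed level of 16 primitive endoderm markers was 18397 to 21821 with SRF-VP16 and 5195 to 5595 with SRFdM-VP16 in E81, and 15702 to 35013 against 9037 to 14584 in E100. Among them the basement membrane collagens Col4a1 and Col4a2 rose in the -/- lines (2.68 and 1.86). Gata4 and Gata6 were not called (-0.79 and 1.06), nor were Sparc (2.11), Lama1 (-0.92) and Dab2 (-0.63). With SRF-VP16 in the -/- lines Col4a1 read 5250 to 14705 and Sparc 5617 to 11150, the highest of the list, so the sums rest largely on them. The part of these changes in the member results was not tested.

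Gata2 and Gata3 are also blood genes, so blood markers were read beside them. Their summed intensity over 11 genes was 2918 to 3420 with SRF-VP16 and 3069 to 3309 with SRFdM-VP16 in E81, and 2903 to 3907 against 3868 to 3953 in E100. Ptprc and Cd3e, which define white blood cells and T cells, were at the floor in all arrays, the only 2 of the 11. Lmo2, Hbb-bh1, Hba-x, Hba-a1 and Klf1 were above the floor in all 23 arrays, with Klf1 at 785 to 2127. In the -/- lines limma called 0 of the 9 tested blood markers (1 with an unadjusted p under 0.05). Of all 9643 tested probe sets 2.82% were called and 1294 had an unadjusted p under 0.05. In E100 limma called 1 of the 9, Runx1, which rose by 1.09 (SE 0.20, adjusted p = 0.0143). There 1.18% of all tested probe sets were called. Runx1 exceeded the floor in 3 of 23 arrays, with a highest value of 149, and was not called over both -/- lines (limma's adjusted p = 0.0571). Mesoderm markers (11 genes) summed to 690 to 1831 over all arrays and fibroblast markers (12 genes) to 1458 to 3536, and of each list limma called 0 in the -/- lines (0 and 1 with an unadjusted p under 0.05). In E81 the fibroblast marker Fbln1, an extracellular matrix fibulin, rose by 1.75 (SE 0.36, adjusted p = 0.0407).

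Likeness between genes was measured over the 12 group means, as a description over groups that share lines and controls. Tpbpa and Dlx3 had a Pearson r of 0.997, since both left the floor in E100 SRF-VP16, and Gata2 and Gata3 had an r of 0.60. Gata2 had an r of 0.64 with Tpbpa and 0.64 with Dlx3, and Gata3 one of 0.68 with each. The probe sets most like Gata3 were those of Anxa1 (0.986), an annexin, Acta1 (0.985), the skeletal muscle actin, and Krt7 (0.98), a keratin of simple epithelia. Acta1 shared with Gata3 the higher wild-type control arrays numbered 2, at 799 and 1007 against 15.4 and 49. Most like Gata2 were Egr2 (0.90), an immediate-early zinc-finger factor, Dusp2 (0.90), a phosphatase of MAP kinases, and Mecom (0.86). Mecom spanned only 0.54 log2 units over the group means and was below the floor in most arrays, so its r rests on few readings. Egr2 read 4153 and 9654 in E81 and 6962 and 10547 in E100 with SRF-VP16, against 118 and 201 in wild type, so it shared with Gata2 the low wild-type SRF-VP16 pair. For Dlx3 14 probe sets tied with an r of 1 to 3 decimals, and the highest value for Tpbpa, 0.997, was also tied, so no single gene is named as most like either. Cdx2 spanned 0.72 log2 units and was not compared.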

How the data were processed

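The 23 arrays fell into 12 groups, per the labels. The values deposited by the authors are linear intensities, 1 for each probe set on each array. How they were scaled and background-corrected, and by which software, is not given in the sources used here, and 29.1% of the readings lay at or below 0. The members and the gene lists were chosen with earlier results of these data known.

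Of 12502 probe sets, 66 controls were left out. Of the rest, 10141 were paired with 1 symbol, 362 with several and 1933 with none, and a gene's brightest probe set stood for it in list counts. Probe sets above their array's 40th percentile in at least 2 arrays were kept (9643 of 12436, including 5 of the 6 members). Intensities were floored at 58 and put on the log2 scale, and limma 3.58.1 in R 4.3.3 was fitted to 1 mean per group with an intensity trend and 11 residual degrees of freedom. Tests were two-sided with Benjamini-Hochberg adjustment at 5% over all kept probe sets. The 12 groups shared 1 estimate of the spread. The fit was tested on simulated data, with changes placed only in probe sets well above the floor. That check does not cover values near the floor, such as those of Tpbpa, Dlx3 and Cdx2.

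Alternatives were quantile normalization, division by the array median, filtering at the 60th percentile or not at all, a floor at that percentile (301), no intensity trend, an inverse hyperbolic sine (scale 58) replacing floor and logarithm, a replicate block within line, vector as the control, and leaving out each array. Named genes were the members, the genes of a list of other trophoblast genes that passed the threshold or were among its 6 brightest, and the 3 probe sets most correlated with each member whose group means spanned at least 1 log2 unit. Where more than 3 tied (Tpbpa and Dlx3) none was named. Col4a1, Col4a2, Gata4, Gata6, Fgf4, Runx1, Fbln1, Eomes, Elf5, Tfap2c and the prolactin genes were named after their values were seen. So were Sparc, Lama1, Dab2, Lmo2, Hbb-bh1, Hba-x, Hba-a1 and Klf1. Srf was not analysed here. Promoter windows come from RefSeq (GRCm38.p6), where Dlx3 and Hand1 had no entry in the table used.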

Additional observations from a re-analysis of the deposited data

Results flagged for a closer look

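The effect of SRF-VP16 on Tpbpa differed between the -/- lines by -1.71 (E81 minus E100, log2, limma's interaction term), and that on Dlx3 by -1.34. Both differences rest on the E100 SRF-VP16 pair, the only -/- arrays above the floor for either gene, so they restate the E100 change and are no separate evidence. The part of background differences between arrays in them was not tested. The Tpbpa call held in 24 of 29 other settings and the Dlx3 call in 18 of 29. Among the 8 settings other than leaving out an array they held in 3 and 2. Both were lost on the inverse hyperbolic sine scale (adjusted p = 0.481 and 0.436) and with no intensity trend (adjusted p = 0.0605 and 0.114), and 3 further settings left neither gene tested.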

How the results depend on the processing

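A member's value was compared with its value under another setting 1500 times. Of these comparisons, 55 lost their call, 1 gained one and 10 were counted as changes of sign. The other 1434 stayed on the same side of the threshold, but not all kept their direction, so 10 is not a full count. With 1 array left out, Cdx2 in the -/- lines went as low as -0.0185, from 0.22. Gata2 for SRFdM-VP16 against vector went as high as 0.17, from -0.13. Gata3 in the -/- lines was called in 32 of 32 other settings, Gata2 in 29 of 32, Tpbpa in 28 of 29 and Dlx3 in 27 of 29. The 29 leaves out the settings in which Tpbpa and Dlx3 failed the filter and were not tested. These were the fits without either E100 SRF-VP16 array and the fit with the stricter filter. The -/- calls of both genes rest on that E100 pair, since their E81 arrays were all at the floor. Values near the floor limit what could be measured. The causes of the changes below were not tested. The counts are of probe sets called.

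With quantile normalization the counts were 178 in E100, 7 in wild type, 3 for E81 minus E100, 4 for -/- against wild-type controls, 22 for E81 against E100 controls and 1 for SRFdM-VP16 against vector, where Gata2 turned to 0.40. Dividing by the array median gave 8 in wild type, 9 for E81 minus E100, 4 and 21 for the control comparisons and 1 for SRFdM-VP16 against vector, with Gata2 at 0.55. These scalings moved the split of calls in the -/- lines from 239 higher and 33 lower to 238 and 109 (quantile) and 167 and 121 (median), and in E81 from 91 and 6 to 49 and 27 and to 46 and 35. In E100 the split was 73 higher and 41 lower as deposited, 129 and 49 with quantile normalization and 66 and 11 with the median. With no filter the counts were 58 in E81, 9 in E99, 22 for E81 minus E100, 19 for -/- minus wild type, 82 and 155 for the control comparisons and 179 for SRFdM-VP16 against vector. A filter at the 60th percentile, which removed Tpbpa and Dlx3 among the members that rose, gave 58 in E100, 1 in wild type, 1 in E99, 2 and 34 for the control comparisons, and with limma 0 for E81 minus E100 and 0 for SRFdM-VP16 against vector (774 and 696 with an unadjusted p under 0.05). A floor at the 60th percentile gave 18 for -/- minus wild type, 62 and 132 for the control comparisons, and with limma 0 in wild type and 0 in E99 (170 and 147 unadjusted). The inverse hyperbolic sine gave 168 in E81, 41 in E100, 9 in E99, 1 and 4 for the 2 differences between lines, 2 and 45 for the control comparisons, 120 for SRFdM-VP16 against vector, and with limma 0 in wild type (359 unadjusted). There Cdx2 in the -/- lines was -0.19, Gata3 for E81 minus E100 0.87 and Gata3 for SRFdM-VP16 against vector 0.52, while Gata2 for -/- minus wild type gained its call (6.95, adjusted p = 0.0272). No intensity trend gave 7 in E99, 2 for E81 minus E100 and 4 for -/- against wild-type controls. With vector as the control the counts were 12 in wild type, 10 in E99, and 28 and 13 for the 2 differences between lines, and Cdx2 in the -/- lines was -0.13.

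Same-numbered arrays of different plasmids had correlations of their deviations from -0.35 to 0.42, over 0.1 for 6 of 10 pairs. All 4 pairs within the -/- lines were over 0.1 (0.25 to 0.31), while the labels state no pairing. A replicate block within line gave 1 in wild type, 6 for E81 minus E100, 4 for -/- minus wild type, 120 for E81 against E100 controls, 2 for SRFdM-VP16 against vector, and with limma 0 in E99 (449 with an unadjusted p under 0.05). With that block Gata2 in E100 (adjusted p = 0.0718), the Dlx3 difference between E81 and E100 (adjusted p = 0.0858), Fgfr2 in the -/- lines (adjusted p = 0.0516) and Ets2 in E81 (adjusted p = 0.058) lost their calls.

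Leaving out 1 array gave 51 to 816 in E81, 73 to 265 in E100, 189 to 504 in the -/- lines, 2 to 36 in wild type, 2 to 22 in E99, 6 to 416 for E81 minus E100, 5 to 32 for -/- minus wild type, 4 to 39 for -/- against wild-type controls, 51 to 357 for E81 against E100 controls and 4 to 341 for SRFdM-VP16 against vector. The highest counts of 816, 504, 416, 357 and 341 came without E81 SRFdM-VP16 replicate 2, which left the lone replicate 1 of that group, assumed to vary like the other groups. Cdx2 ran from -0.037 to 0.92 in E100, from -0.19 to 0.92 in wild type and from -0.70 to 0.41 for -/- minus wild type, and Gata2 ran from -1.44 to 1.18 in E99.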

Other observations

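Cdkn1c, an imprinted inhibitor of the cell cycle that restrains placental growth, was the member of the wider trophoblast list that separated the -/- lines. It read 280 and 801 with vector and 328 and 394 with SRFdM-VP16 in E81, against 3945 with vector and 4279 and 5069 with SRFdM-VP16 in E100. No E81 array reached the lowest E100 array, and with SRF-VP16 the values were 420 and 1305 against 5342 and 7365. E81 against E100 with the control plasmids was -3.38 ± 0.61 (10.4-fold lower, limma's adjusted p = 0.0201). All 76 probe sets called in this comparison were lower in E81, and the median change of all tested probe sets was -0.27. The part of that shift in the Cdkn1c value was not tested. The Cdkn1c call was lost under division by the array median and without E81 vector replicate 1, E81 SRFdM-VP16 replicate 1 or E100 SRFdM-VP16 replicate 1 (highest adjusted p 0.11). Wild-type control arrays ran from 1869 to 3749. Both lines are labelled -/-, and what sets them apart for this gene was not tested.

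Tfap2c, a factor of trophoblast progenitors and germ cells, differed widely between duplicates of most groups. Wild-type arrays read -81.8 and 1361 with vector and -208 and 1855 with SRFdM-VP16 for replicates 1 and 2, and E81 SRFdM-VP16 read -250 and 1679. In E100 the SRFdM-VP16 pair was -85 and 3069. In E99 the array numbered 1 was the higher with the control plasmids, at 2929 against 828 with vector and 2326 against 222 with SRFdM-VP16.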
